A study of Sordaria macrospora with 14 samples.

Results

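The 77 genes described here are those of the filamentous fungus Sordaria macrospora whose transcript level stayed within a narrow range over the strains and tissues measured. They were chosen from 9869 gene models by their CPM, the raw count divided by the column total of its library and multiplied by 1000000. A gene was kept when its mean lay between 30 and 1000 CPM in each of 7 groups and its highest group mean was at most 1.35 times its lowest. The values that chose the genes are therefore not evidence of steadiness and are given as a description. The table used here gives each gene as a locus number only, and the reference table holds 0 symbols other than locus numbers, so no function can be attached to any of the 77.

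RNA of 4 strains was sequenced in 14 libraries, as 7 groups with 2 independent biological replicates each. The groups were Δspt3 mycelium, Δasm2 perithecia, Δasm2 mycelium, ΔSMAC_03952 perithecia, ΔSMAC_03952 mycelium, wild-type perithecia and wild-type mycelium. Strains grew for 6 days at 25 °C on corn meal medium. Mycelium undergoing sexual development came from liquid medium, and perithecia came from plates that were flooded with ethanol for 10 min before they were scraped, so tissue, culture form and fixation cannot be told apart. Each deletion strain carries 1 named deletion, and the sources used here do not state how many clones stand behind a strain. Δspt3 perithecia were not analysed here. In such bulk RNA, fewer cells of a type and less RNA per cell cannot be told apart, and with no gene names the tissue labels were not checked against marker genes.

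Perithecia are the flask-shaped fruiting bodies in which asci and ascospores form, and they hold many cell types that vegetative hyphae lack. Genes whose transcripts keep a constant share of the RNA pool across such tissues are used as reference genes: the level of a gene of interest is given relative to them, so any drift of the reference passes into the result. SPT3 is known from budding yeast as a subunit of SAGA, a coactivator complex that acts at many promoters.

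The count totals of the libraries ranged from 6383079 to 24029990. SMAC_03952, the only deleted gene whose locus number is in its strain's name, averaged 45.2 ± 6.15 CPM in ΔSMAC_03952 perithecia and 22.1 ± 1.86 CPM in ΔSMAC_03952 mycelium, against 184 ± 29.2 CPM in wild-type perithecia and 238 ± 11.7 CPM in wild-type mycelium (SD, n = 2 each). It averaged 112 ± 36.1 CPM in Δspt3 mycelium, and its counts were above 0 in every ΔSMAC_03952 library. As a check for a library deposited under more than 1 name, replicates were compared by chi-square, which lay between 5.14 and 58.1 per steady gene where 1 library counted again would give about 1 or less, so each library was counted as 1 sample. The steady genes together held between 0.860% and 0.989% of the counts of a library.

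Steadiness of this degree was uncommon. Of the 9869 gene models, 3249 had all 7 group means between 30 and 1000 CPM, and these are called genes of moderate level below. The 77 steady genes were 2.37% of them and 0.780% of all gene models. The ratio of highest to lowest group mean had a median of 1.29 in the steady genes, with a lowest value of 1.13, against a median of 2.25 over all genes of moderate level, where it reached 30.6. A limit of 1.2 left 10 genes, a limit of 1.5 took in 288, and 1225 genes stayed within a ratio of 2.

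**Figure D1:**
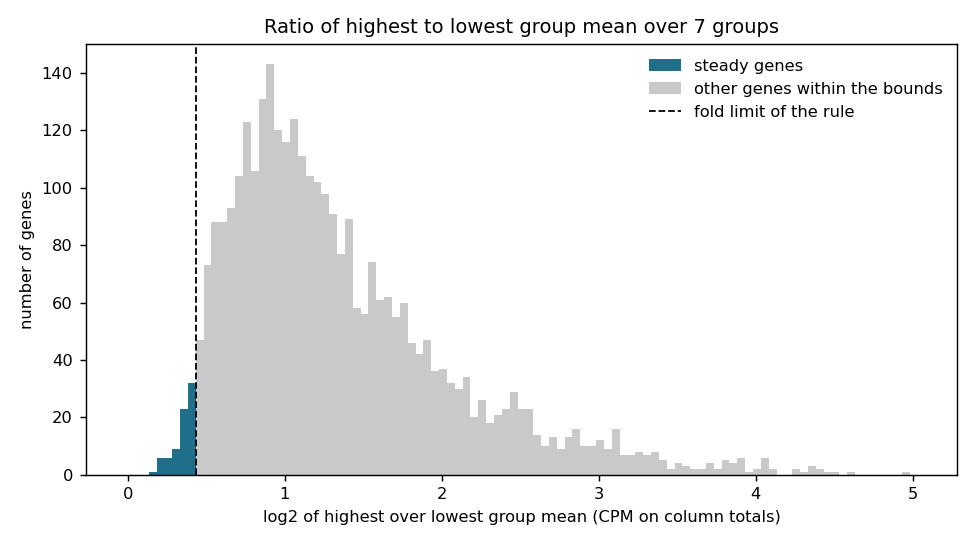
Number of genes (vertical axis) by the log2 ratio of their highest to their lowest group mean in CPM on column totals (horizontal axis), for the 77 steady genes (dark) stacked under the other 3172 genes of moderate level (grey). The dashed line is the limit of 1.35, which cuts the lower slope of a single distribution with no gap at the limit.

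The limit lay in the lower tail of this distribution. The 4 genes just inside were SMAC_08834, SMAC_02403, SMAC_01323 and SMAC_05388, with ratios between 1.34 and 1.35. The 4 just outside were SMAC_03291, SMAC_03109, SMAC_04596 and SMAC_01003, with ratios between 1.35 and 1.36. SMAC_05388, inside, stood at 237 ± 45.5 CPM in Δspt3 mycelium, its highest group, and at 176 ± 2.75 CPM in Δasm2 mycelium, its lowest (SD, n = 2 each). SMAC_03109, outside, stood at 367 ± 0.260 CPM in Δasm2 perithecia and at 271 ± 45.0 CPM in wild-type perithecia (SD, n = 2 each).

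SMAC_00259 had the lowest coefficient of variation (CV) over the 14 libraries, 6.41% on column totals. It stood at 191 and 213 CPM in Δspt3 mycelium, 201 and 224 CPM in Δasm2 perithecia, 214 and 224 CPM in Δasm2 mycelium, 229 and 229.9 CPM in ΔSMAC_03952 perithecia, 217 and 206 CPM in ΔSMAC_03952 mycelium, 232 and 237 CPM in wild-type perithecia, and 240.2 and 218 CPM in wild-type mycelium. Its lowest library was a Δspt3 one and its highest a wild-type mycelium one, and both Δspt3 libraries lay below all 4 wild-type libraries on this scale. After TMM scaling the Δspt3 libraries stood at 238 and 223 CPM, among the wild-type values. On column totals the highest library was 1.26 times the lowest.

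SMAC_12708 was the most abundant steady gene and the second steadiest on column totals, with a CV of 6.87%. It stood at 743 and 747 CPM in Δspt3 mycelium, 761 and 764 CPM in Δasm2 perithecia, 731 and 776 CPM in Δasm2 mycelium, 771 and 689.7 CPM in ΔSMAC_03952 perithecia, 791 and 771 CPM in ΔSMAC_03952 mycelium, 850.2 and 807 CPM in wild-type perithecia, and 840.1 and 899 CPM in wild-type mycelium. All 4 wild-type libraries lay above all 10 libraries of the deletion strains. This order was noticed in the values, was not tested, and did not hold after TMM scaling, where Δspt3 mycelium replicate 1 stood at 925 CPM and wild-type perithecia replicate 2 at 712 CPM.

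SMAC_08273 had the lowest ratio of group means, 1.13. Its highest mean was 162 ± 5.15 CPM in ΔSMAC_03952 mycelium and its lowest 143 ± 8.21 CPM in wild-type mycelium (SD, n = 2 each). The widest spread lay inside 1 group: the Δspt3 replicates stood at 120.5 and 168 CPM and were the lowest and the highest of all 14 libraries. A narrow range of group means thus did not exclude a wide pair of replicates.

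At the other end, SMAC_05136 had the highest CV, 20.9% on column totals. It stood at 58.7 and 109 CPM in Δspt3 mycelium, 48.6 and 79.8 CPM in Δasm2 perithecia, 82.8 and 75.7 CPM in Δasm2 mycelium, 69.9 and 68.1 CPM in ΔSMAC_03952 perithecia, 76.9 and 91.2 CPM in ΔSMAC_03952 mycelium, 55.0 and 71.9 CPM in wild-type perithecia, and 73.1 and 91.0 CPM in wild-type mycelium. The highest library was 2.24 times the lowest, and it was a Δspt3 library whose own replicate was among the 3 lowest. The means of its 7 groups lay between 63.4 and 84.0 CPM, so the Δspt3 pair alone spanned more than the 7 means. In SMAC_12897, with a CV of 17.9%, the ΔSMAC_03952 mycelium replicates stood at 79.1 and 126 CPM and the wild-type perithecia replicates at 94.1 and 67.4 CPM.

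**Figure D2:**
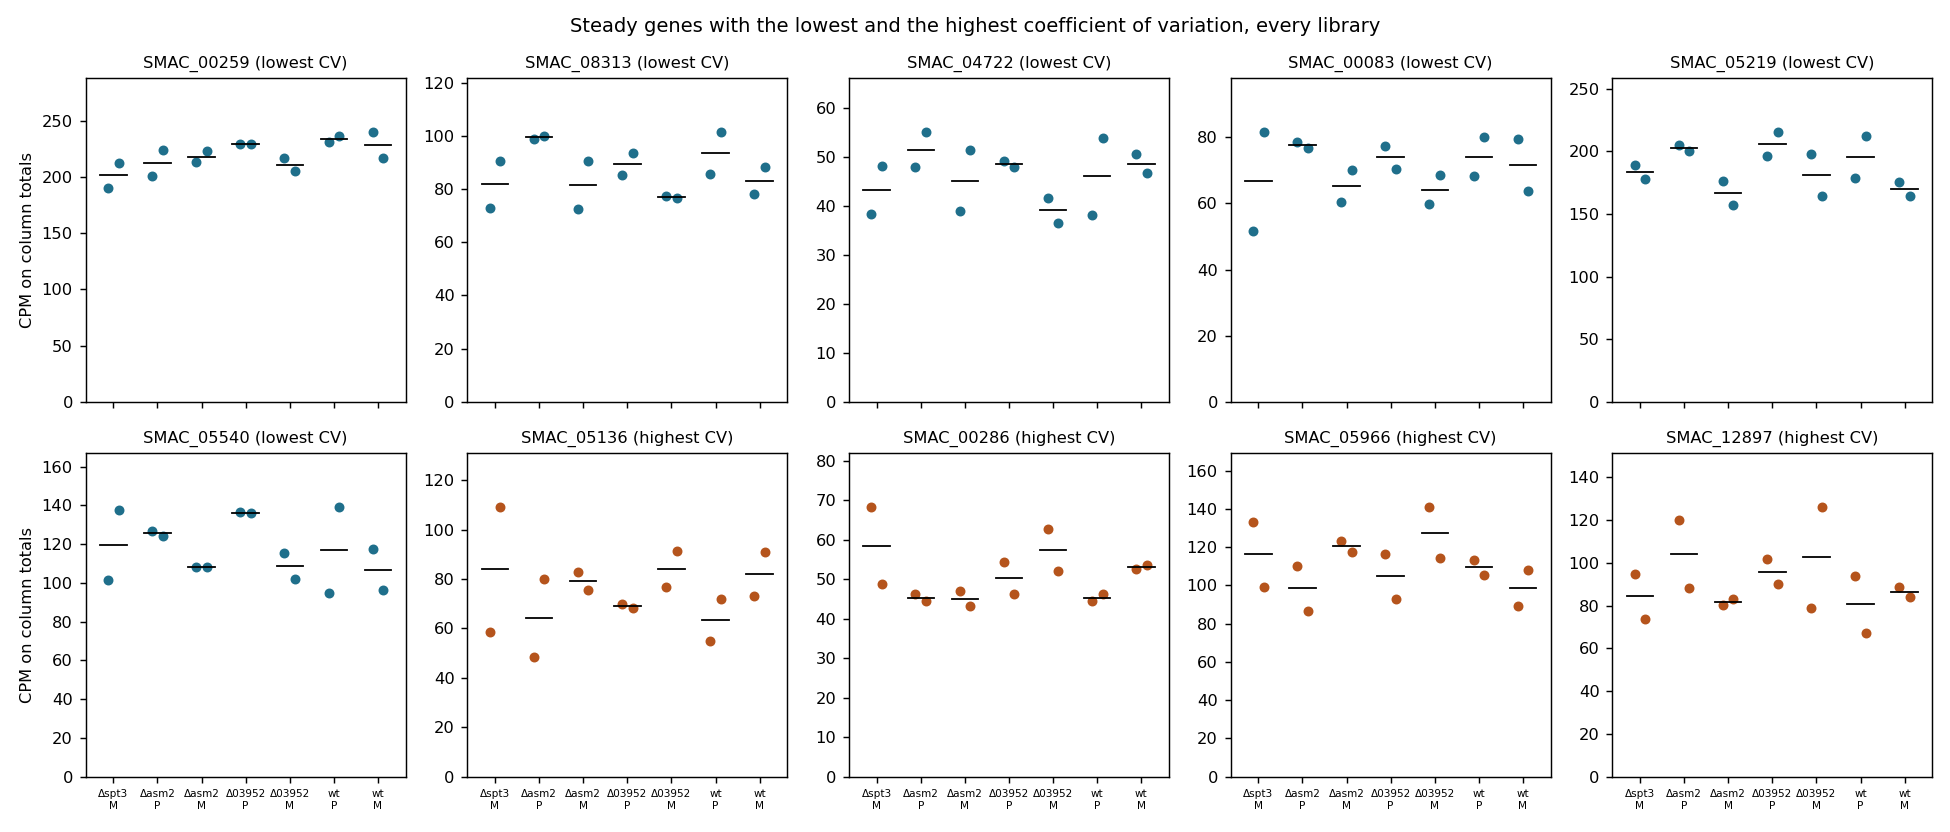
CPM on column totals in each library (dots; replicate 1 left, replicate 2 right) with the mean of each pair (bar) for the 6 steady genes with the lowest CV (blue) and the 4 with the highest CV (orange) after TMM scaling; M is mycelium, P perithecia, and Δ03952 is ΔSMAC_03952. SMAC_00259 stays between 191 and 240.2 CPM in all 14 libraries, while the Δspt3 replicates of SMAC_05136 stand at 58.7 and 109 CPM.

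Over the 77 genes, the ratio of the highest to the lowest library had a median of 1.57, with quartiles of 1.46 and 1.69, and it exceeded 2 in 2 genes. In 3 genes every library stayed within the limit of 1.35. The CV over the 14 libraries ranged from 6.41% to 20.9% with a median of 13.0%, against a median of 32.4% in the other genes of moderate level.

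The difference between the replicates of a group is not itself part of the group means that the rule used, although a gene with noisy replicates also has noisier means and so passes the rule less easily. The absolute log2 difference between replicates had a median of 0.166 over the 77 genes and 7 groups, with quartiles of 0.070 and 0.293. In the other genes of moderate level the median was 0.235, with quartiles of 0.108 and 0.430. Genes are not replicates of each other, so these medians are given without a test. The largest single difference was that of SMAC_02957 in Δspt3 mycelium, at 46.5 and 89.6 CPM; this gene was picked after its values were seen.

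Replicate spread in the steady genes differed between groups. It was widest in Δspt3 mycelium, with a median absolute log2 difference of 0.310, followed by wild-type perithecia with 0.233 and ΔSMAC_03952 mycelium with 0.197. It was 0.161 in Δasm2 mycelium, 0.141 in wild-type mycelium, 0.133 in ΔSMAC_03952 perithecia and 0.119 in Δasm2 perithecia. Δspt3 mycelium, wild-type perithecia and ΔSMAC_03952 mycelium were also widest in the other genes of moderate level, at 0.393, 0.348 and 0.303. The order is thus not particular to the steady genes. After TMM scaling the medians of the steady genes in these groups lay closer together, at 0.230, 0.212 and 0.204. In 2 groups most of the difference ran one way: replicate 2 was higher than replicate 1 for 57 of 77 genes both in Δspt3 mycelium and in wild-type perithecia. The other genes of moderate level shifted the same way on column totals. Their median log2 ratio of replicate 1 to replicate 2 was -0.149 in Δspt3 mycelium and -0.235 in wild-type perithecia, against -0.245 and -0.196 in the steady genes. In ΔSMAC_03952 perithecia the medians of the steady genes and of the other genes of moderate level were close, 0.133 and 0.137.

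The SD of log2 CPM within groups had a median of 0.179 over the steady genes, and the SD that counting alone gives at their counts had a median of 0.045. Their lowest count in any library was 223 and their mean counts ran from 477 to 11224, with a median of 1140.

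The choice was repeated in a way that leaves libraries over for a measurement. When the rule was applied to the 7 libraries labelled replicate 1 alone, 74 genes passed, 30 of them among the 77. In the 7 libraries labelled replicate 2, which had no part in this choice, 7 of the 74 (9.46%) again stayed within 1.35, against 1.60% of the 2944 genes that were at moderate level in the replicate 1 libraries. The median ratio of the 74 genes was 1.28 in the libraries that chose them and 1.68 in the others, where all 2944 genes had a median of 2.43. Chosen on the replicate 2 libraries, 52 genes passed and 7 of them (13.5%) held in the replicate 1 libraries, against 2.12% of 3205 genes.

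The 7 genes that held in both sets of libraries were SMAC_00259, SMAC_00281, SMAC_02375, SMAC_05523, SMAC_05727, SMAC_08273 and SMAC_12708, and all 7 are among the 77. That membership follows from arithmetic, since a gene within the limit in both sets has group means within it. The 2 directions of choice ask for the same 2 ratios, so their 7 genes are the same and are not separate results. SMAC_00259 had ratios of 1.26 in the replicate 1 libraries and 1.15 in the replicate 2 libraries, and SMAC_12708 had 1.16 and 1.30. With both libraries of 1 group left out of both sets, between 11 and 38 genes held, since fewer libraries have to stay within the limit, and the background share was higher too. Without Δspt3 mycelium 38 of 182 genes held (20.9%, against 4.85% of all genes of moderate level), and without ΔSMAC_03952 mycelium 25 of 106 did (23.6%, against 5.06%). Without wild-type perithecia 21 of 140 held (15%, against 2.67%), and without Δasm2 mycelium 14 of 95 did (14.7%, against 2.36%). Without Δasm2 perithecia 12 of 95 held (12.6%, against 2.39%), without wild-type mycelium 12 of 124 (9.68%, against 2.13%), and without ΔSMAC_03952 perithecia 11 of 97 (11.3%, against 3.04%).

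**Figure D3:**
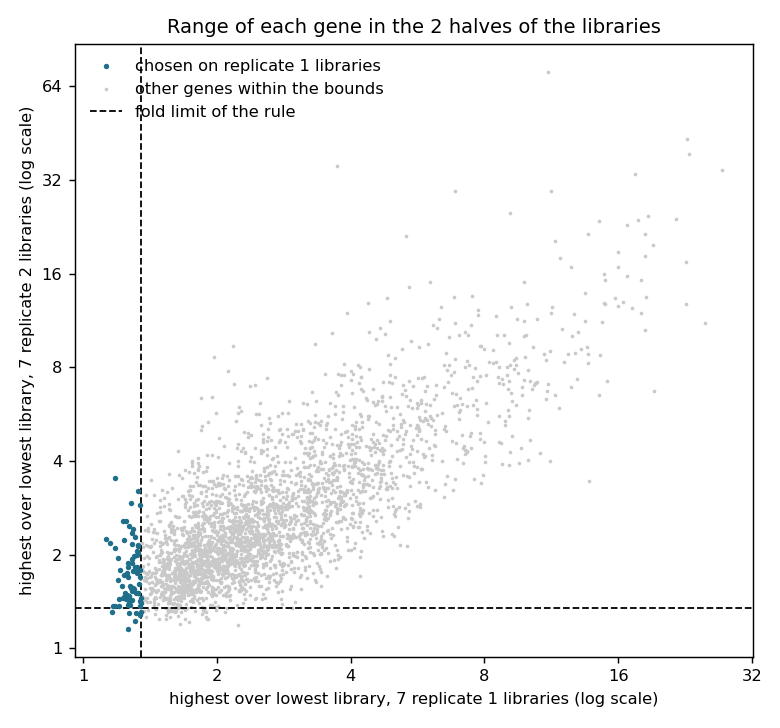
Each point is a gene at moderate level in the replicate 1 libraries; the axes give the ratio of its highest to its lowest library among the 7 replicate 1 libraries (horizontal) and the 7 replicate 2 libraries (vertical), both on a log scale, with the limit of 1.35 dashed. Of the 74 genes chosen on the horizontal axis (blue), 7 lie below the dashed line on the vertical axis, and their median there is 1.68.

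Which genes counted as steady depended on how the libraries were scaled. CPM on column totals assigns every library the same sum, whereas TMM, the trimmed mean of M-values used by edgeR, and RLE, the median ratio used by DESeq2, centre the ratios of most genes on 1. TMM factors ranged from 0.803 in Δspt3 mycelium replicate 1 to 1.16 in ΔSMAC_03952 perithecia replicate 2, a span of 1.45 times over single libraries. Averaged within groups they ranged from 0.875 in Δspt3 mycelium to 1.12 in ΔSMAC_03952 perithecia, a span of 1.28 times, which lies within the limit of the rule for group means. On CPM scaled by TMM factors 87 genes met the rule, and 25 of them were among the 77 (32.5% of the 77 and 28.7% of the 87). With RLE factors 83 genes met it, and 26 were shared (33.8% and 31.3%). Both scalings together kept 22 of the 77 genes.

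The 77 genes themselves put the libraries closer to their column totals than TMM did. The geometric mean of their CPM, set to an average of 1, ranged from 0.920 in wild-type perithecia replicate 1 to 1.07 in Δspt3 mycelium replicate 2, a span of 1.17 times. Over the pair of Δspt3 libraries it was 1.00, where the TMM factor was 0.875; in ΔSMAC_03952 perithecia the values were 1.03 and 1.12. The rule limited the group averages of these genes, so their closeness to column totals follows from the choice. Within a group, the Δspt3 libraries stood furthest apart, at 0.931 and 1.07.

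**Figure D4:**
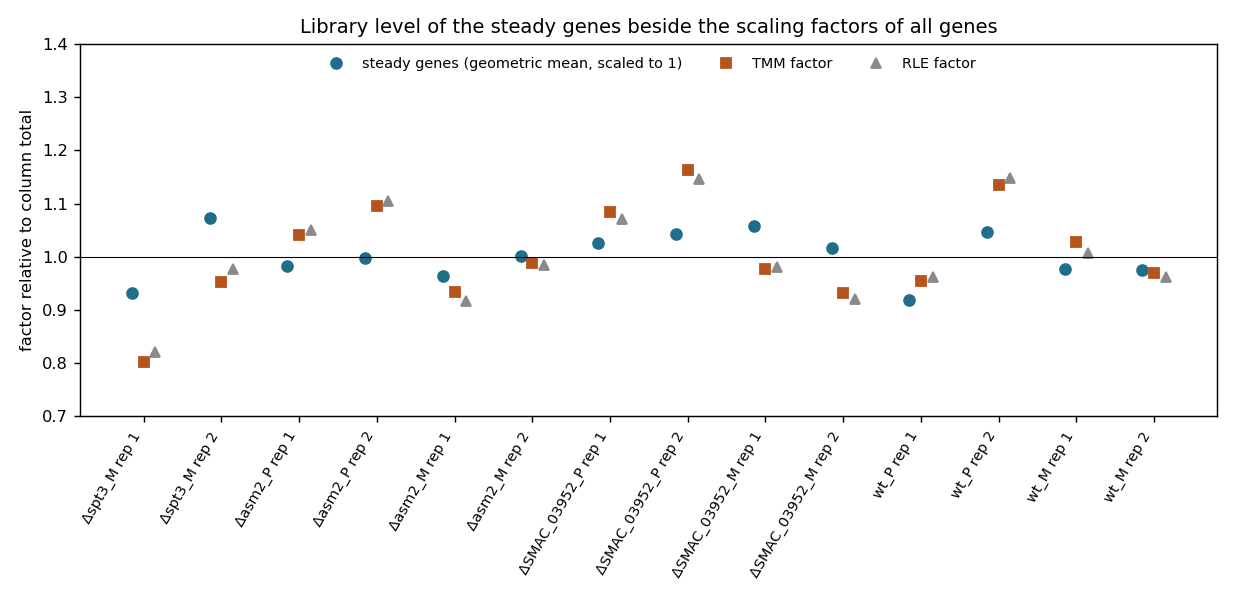
For each library (horizontal axis), the geometric mean CPM of the 77 steady genes scaled to an average of 1 (circles) and the TMM (squares) and RLE (triangles) factors of all genes, each relative to the column total (vertical axis, which does not start at 0); M is mycelium and P perithecia. The circles span 0.920 to 1.07 and the TMM factors 0.803 to 1.16.

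Single genes gained or lost steadiness with the scaling. SMAC_05540 had a CV of 13.7% on column totals and 9.87% after TMM scaling. It stood at 94.7 and 139 CPM in wild-type perithecia on column totals, its lowest and its highest library, and the TMM factors of those libraries were 0.954 and 1.13. SMAC_08313, SMAC_04722 and SMAC_00083 moved the same way, with CVs of 11.5%, 13.4% and 12.9% on column totals and 8.01%, 9.22% and 9.56% after TMM scaling. SMAC_05219 stayed close, at 9.90% and 9.67%. SMAC_00286 moved the other way, with 14.4% on column totals and 23.1% after TMM scaling. On column totals its Δspt3 libraries stood at 68.2 and 48.7 CPM, against 52.6 and 53.5 CPM in wild-type mycelium, and the lowest TMM factor, 0.803, belonged to the library with 68.2 CPM. Over all 77 genes the median CV was 13.0% on column totals and 14.8% after TMM scaling, and the ratio of group means after TMM scaling had a median of 1.39 and reached 1.65.

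SMAC_09075, the second most abundant at a mean of 495 CPM, ranged from 369 CPM in Δasm2 perithecia replicate 1 to 637 CPM in ΔSMAC_03952 mycelium replicate 1, with a CV of 14.3%. SMAC_08834, the longest gene model at 5955 bases, stood at 124 and 139 CPM in wild-type perithecia, against 92.6 and 103 CPM in wild-type mycelium, with no overlap between these groups. SMAC_02643, of 4527 bases, stood at 167 and 267 CPM in wild-type perithecia, against 274 and 246 CPM in wild-type mycelium, where the groups overlapped. SMAC_02403, the second least abundant at a mean of 35.6 CPM, stood at 26.7 and 45.1 CPM in wild-type perithecia, against 32.3 and 29.5 CPM in wild-type mycelium.

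After TMM scaling the steady genes lay off the centre of all genes in the comparisons where the factors differed most. In Δspt3 against wild-type mycelium their median log2 fold change was 0.21, with 69 genes above 0 and 8 below, while the median of all 9499 genes tested was -0.01. In ΔSMAC_03952 perithecia against ΔSMAC_03952 mycelium it was -0.24, with 9 genes above 0 and 68 below, and the median of all genes was 0.00. On column totals the medians of the steady genes were 0.03 and -0.01 in these comparisons, and those of all genes were -0.16 and 0.24. In ΔSMAC_03952 against wild-type mycelium the median of the steady genes was above 0 on both scales, at 0.18 after TMM scaling, with 62 genes above 0 and 15 below, and at 0.12 on column totals, with 55 above 0 and 22 below. In Δasm2 against wild-type mycelium it was 0.06 after TMM scaling and 0.01 on column totals. The sign of the median differed between the scales in the other 4 comparisons. It was -0.13 after TMM scaling and 0.02 on column totals for perithecia against mycelium in Δasm2, and -0.05 and 0.03 for the same tissues in the wild type. For perithecia of Δasm2 against wild type it was -0.02 after TMM scaling and 0.01 on column totals, and for perithecia of ΔSMAC_03952 against wild type -0.03 and 0.08. The rule used these group means, so the medians are a description. These comparisons share groups and are not independent.

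Tests between the groups used the same contrasts as the rule, so their counts describe the members and support nothing. Over the 7 groups, edgeR's quasi-likelihood F test with Benjamini-Hochberg adjustment called 1 of the 77 genes, where 79.0% of the 9499 genes tested were called. In this test 3 of the 77 had an unadjusted p under 0.05, and the share of all genes that did was not taken. The gene called was SMAC_00276 (adjusted p = 0.0438), named for its call after its values were seen. It stood at 148 and 169 CPM in Δspt3 mycelium, against 141 and 132 CPM in wild-type mycelium, and at 117 and 122 CPM in wild-type perithecia, its lowest group. The call did not hold in 17 of 20 alternatives, and the adjusted p ran from 0.00866 to 0.262 over all 20; it held with DESeq2, without the filter on low counts and without ΔSMAC_03952 mycelium replicate 1. With any other single library left out its adjusted p lay above 0.05, for each of those 13 libraries. The number of steady genes called was 4 without Δspt3 mycelium replicate 1, 3 without Δspt3 mycelium replicate 2, 2 without wild-type perithecia replicate 2 or ΔSMAC_03952 mycelium replicate 1, and 0 without any 1 of the other 10 libraries, with 0 to 2 genes at an unadjusted p under 0.05 there. The share of all genes called also changed with the library left out, so these counts are not read as results about the members. DESeq2 called 9 of the 77, where it called 81.8% of all genes. On library totals edgeR called 0, with 0 at an unadjusted p under 0.05, where 76.2% of all genes were called.

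In at least 1 of 8 comparisons between pairs of groups, edgeR called 7 of the 77 genes, where 80.0% of all genes tested were called in at least 1. Before adjustment 25 of the 77 had an edgeR p under 0.05 in at least 1, and the share of all genes that did was not taken. Of the 7 genes called, 6 were called in Δspt3 against wild-type mycelium and 1 in ΔSMAC_03952 perithecia against ΔSMAC_03952 mycelium. The share of all genes called in each single comparison was not taken, so these counts are not read as a trait of the members. Over all genes tested, the median absolute log2 fold change was 0.959 in the Δspt3 comparison and 0.659 in the ΔSMAC_03952 one. These were the largest and the second largest of the 8 comparisons. With library totals and no scaling factors, edgeR called 0, with 2 genes at an unadjusted p under 0.05, where 78.0% of all genes were called. DESeq2 called 11, where it called 81.5% of all genes. When 1 library was left out, as below, the share of all genes called changed too. The edgeR count was 0 without ΔSMAC_03952 perithecia replicate 1, without wild-type mycelium replicate 1 and without wild-type mycelium replicate 2, where 11, 10 and 12 genes had an unadjusted p under 0.05. It was 1 without ΔSMAC_03952 perithecia replicate 2 or ΔSMAC_03952 mycelium replicate 2, 2 without ΔSMAC_03952 mycelium replicate 1, 3 without Δasm2 perithecia replicate 1, and 4 without Δasm2 perithecia replicate 2 or either Δasm2 mycelium replicate. In the authors' deposited table, whose 8 comparisons are set against wild-type mycelium or wild-type perithecia, 8 of the 77 genes have an adjusted p under 0.05 in at least 1 comparison, where 76.8% of the 9853 genes with an adjusted p do, and the largest absolute log2 fold change of any of them is 0.53.

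Steady genes were of ordinary length for their level. Their gene models had a median length of 2150 bases and ran from 1061 to 5955 bases, against a median of 2270 bases and a range from 234 to 15265 bases in the other genes of moderate level. The genes of moderate level were split by length into tertiles of 1083 genes. The short tertile (up to 1786 bases) held 23 steady genes (2.12%), the middle tertile (1787 to 2847 bases) held 33 (3.05%) and the long tertile (from 2848 bases) held 21 (1.94%). By level, 37 lay in the lowest tertile (up to 78.0 CPM), 22 in the middle and 18 in the highest (from 140.0 CPM). Per length, the steady genes had a median of 42.8 CPM per kilobase, with SMAC_03386 lowest at 7.92 and SMAC_12708 highest at 436 CPM per kilobase; the median of the other genes of moderate level was 46.0.

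The size of the replicate difference hardly changed with length in the steady genes. Its median absolute log2 value was 0.165 in the short tertile, 0.171 in the middle tertile and 0.166 in the long tertile. In the other genes of moderate level it was 0.210, 0.202 and 0.305 in the same tertiles, higher in the long genes. It did change with the mean count: over tertiles of that count, from low to high, it was 0.195, 0.168 and 0.128 in the steady genes, against 0.237, 0.237 and 0.229 in the other genes of moderate level.

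The direction of the residual, by contrast, followed length in some libraries. For each library the log2 deviation of every steady gene from its own mean over the 14 libraries was set against its length; these correlations are across genes, which share the library, and carry no p. Spearman's correlation over the 77 genes was 0.46 in wild-type perithecia replicate 2 and -0.38 in wild-type perithecia replicate 1, 0.39 in ΔSMAC_03952 perithecia replicate 2, and -0.44 in ΔSMAC_03952 mycelium replicate 2. In the other 10 libraries it lay between -0.18 and 0.21. Over the other 3172 genes of moderate level it ran from -0.64 in ΔSMAC_03952 mycelium replicate 2 to 0.52 in ΔSMAC_03952 perithecia replicate 2.

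**Figure D5:**
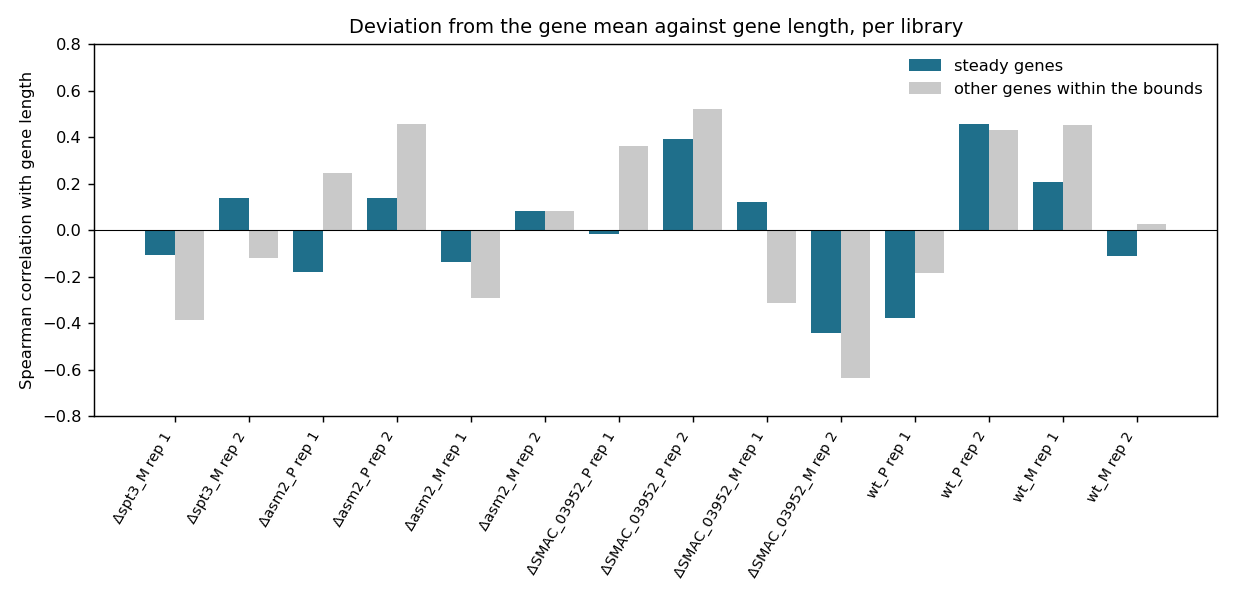
Spearman's correlation (vertical axis) between gene length and the log2 deviation of a gene from its mean over the 14 libraries, for each library (horizontal axis), in the 77 steady genes (dark) and the other 3172 genes of moderate level (grey); M is mycelium and P perithecia. The wild-type perithecia replicates stand on opposite sides of 0 in both sets, at -0.38 and 0.46 in the steady genes.

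In size, the median log2 deviation of the long steady genes (21 genes) was set against that of the short ones (23 genes). The long median was higher by 0.22 in wild-type perithecia replicate 2 and lower by 0.17 in replicate 1 of that group (-0.17). The difference was 0.16 in Δspt3 mycelium replicate 2, 0.15 in ΔSMAC_03952 perithecia replicate 2 and -0.22 in ΔSMAC_03952 mycelium replicate 2. SMAC_03386, a gene model of 4379 bases and the least abundant of the 77, shows this in single values. It stood at 38.7 and 23.8 CPM in ΔSMAC_03952 mycelium and at 27.1 and 48.3 CPM in wild-type perithecia. These groups held the lowest and the highest of its 14 libraries, each with its own replicate on the other side of the mean of 34.7 CPM. The rule holds the group means close together, so an extreme library of a steady gene tends to have its replicate on the other side. SMAC_04762, the shortest at 1061 bases, ran the other way, with 72.6 and 99.8 CPM in ΔSMAC_03952 mycelium and 82.6 and 61.6 CPM in wild-type perithecia. SMAC_05966, of 1067 bases, did not do so in both groups: it stood at 141 and 114 CPM in ΔSMAC_03952 mycelium, lower in replicate 2, and at 114 and 105 CPM in wild-type perithecia. The cause of the length trend was not tested.

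When a lowess trend on log2 length was taken out of each library, 143 genes met the rule, 29 of them among the 77 (37.7%). Without the Δspt3 group, 239 genes met it, all 77 included. Both settings were chosen after the data were seen. Leaving out 1 library at a time gave lists of 65 to 90 genes, and 10 of the 77 stayed in all 14 lists. SMAC_00259, SMAC_02286 and SMAC_05727 stayed in the list under each of the 14 omissions, both scalings and the removal of length trends. These lists rest on group means and do not exclude wide replicates. On column totals SMAC_02286 stood at 85.4 and 66.2 CPM in wild-type perithecia and 73.2 and 95.4 CPM in wild-type mycelium. Its replicates lay closer together in the other groups. Its CV was 10.4% on column totals and 16.3% after TMM scaling, against medians of 13.0% and 14.8% in the 77 genes. It was not among the genes that held in both sets of libraries. SMAC_05727 stood at 99.0 and 115 CPM in Δspt3 mycelium, 122 and 129 CPM in Δasm2 perithecia, 109 and 109 CPM in Δasm2 mycelium, 112 and 105 CPM in ΔSMAC_03952 perithecia, 101 and 112 CPM in ΔSMAC_03952 mycelium, 96.2 and 108 CPM in wild-type perithecia, and 101 and 99.6 CPM in wild-type mycelium. Its highest values on column totals were those of Δasm2 perithecia, and the 2 libraries of that group lay above the other 12. This order did not hold after TMM scaling, where these 2 libraries stood at 117 and 118 CPM and the Δspt3 libraries at 123 and 121 CPM.

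The highest and the lowest group of a steady gene were unevenly spread over the 7 groups. ΔSMAC_03952 mycelium was the highest group for 21 of the 77 genes and ΔSMAC_03952 perithecia for 17, against 6 each for wild-type mycelium and wild-type perithecia. Δspt3 mycelium was highest for 12, Δasm2 perithecia for 9 and Δasm2 mycelium for 6, as in the wild-type groups. Wild-type perithecia were the lowest group for 17 genes, wild-type mycelium for 13, and Δasm2 mycelium and Δasm2 perithecia for 12 each. ΔSMAC_03952 mycelium was lowest for 10, ΔSMAC_03952 perithecia for 9 and Δspt3 mycelium for 4. Among single libraries, Δspt3 mycelium replicate 2 was the highest library for 19 genes and wild-type perithecia replicate 1 the lowest for 18. These counts are on column totals and come from the values that chose the genes.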

How the data were processed

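The deposited table gives raw read counts per gene model for 14 libraries and the length of each gene model, per the file headers. The sources used here do not name the aligner, counting program, genome build or use of strand, so genes with near copies or overlapping neighbours are uncertain. The extraction text of the labels also names microdissected RNA; samples were taken as titled. The authors' deposited table further holds a mean normalized signal, log2 fold changes and adjusted p-values written to 2 decimals, from DESeq2 per the submitters' processing notes; the signal was not used.

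Of 10014 rows, 145 are second transcripts with no count and were left out. Group membership came from the labels. The counts were tested with edgeR 4.0.16 (filterByExpr, TMM, 1 mean per group, glmQLFit and glmQLFTest) in R 4.3.3 over all 14 libraries; 9499 genes were tested, all 77 steady genes among them, and p-values were adjusted by Benjamini-Hochberg over all of them at a threshold of 0.05. The fit has 7 residual degrees of freedom and a common biological coefficient of variation of 0.237. DESeq2 1.42.0 was an alternative, and limma 3.58.1 removed replicate-number effects in another. Values are CPM on column totals unless TMM scaling is named; CPM per kilobase divides by gene model length.

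The members and all lists were chosen with earlier results of these data known. Named genes are the 6 with the lowest and 4 with the highest CV after TMM scaling, 4 on either side of the limit, the 2 most and 2 least abundant, and the 2 longest and 2 shortest; those named otherwise are said to be or follow from a stated count. A list of products used as reference genes was planned and not run, because no product names were used here. The reference annotation, ASM3387043v1, matched 76 of the 77 genes by locus number and gave no names; no coordinates are given. Sequences were not used.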

Additional observations from a re-analysis of the deposited data

How the results depend on the processing

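The number of steady genes, 77, stayed within 1.5 times under TMM and RLE factors, under a lower bound of 10 CPM (92 genes) and with any single library left out (65 to 90), although the genes themselves changed. It was 10 and 288 with limits of 1.2 and 1.5, 26 with a lower bound of 100 CPM, 3 when every single library had to stay within the limit, 143 with length trends removed and 239 without the Δspt3 group; stricter or looser rules give fewer or more genes by construction, and the cause of the change with length trends was not tested. The number of genes that held in the libraries not used for choosing was 7. With lists chosen anew, it was 0 of 9 with a limit of 1.2 (background 0.0679%), 51 of 188 with a limit of 1.5 (27.1%, background 5.77%), 7 of 69 with TMM factors (10.1%, background 1.66%), and 11 to 38 with both libraries of 1 group left out. The median replicate difference of 0.166 ranged from 0.147 to 0.186 over 19 alternatives. The count called over the 7 groups was 0 on library totals with edgeR (0 at an unadjusted p under 0.05), 9 with DESeq2, and 0 to 4 with 1 library left out. The count called in at least 1 of 8 comparisons was 0 on library totals, 11 with DESeq2, 5 with RLE factors, and 0 to 9 with 1 library left out. With the replicate number as a block the 3 counts were 79 (all 77 shared), 1 and 8, and SMAC_00276 had an edgeR adjusted p of 0.0520. Each group holds 1 library of either number, so the block leaves the mean log2 level of every group unchanged. The list of 79 was therefore nearly fixed in advance and is no check of the 77. The share of all genes called over the 7 groups was 76.2% on library totals, 81.8% with DESeq2 and 79.5% with the block. In at least 1 of 8 comparisons it was 78.0%, 81.5% and 81.1% in the same order, and 79.8% with RLE factors. The numbers do not pair the samples: over 21 pairs of groups the correlation of replicate differences ran from -0.61 to 0.63. The counting SD of a steady gene, as a root mean square over the 14 libraries, was at most 0.069 on the log2 scale. It is an average per gene, and single libraries with low counts, down to 223, lie above it for their gene.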

Other observations

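Ratios between steady genes do not depend on how the libraries are scaled. Over the 2926 pairs of the 77 genes, the SD of the log2 ratio over the 14 libraries had a median of 0.25 and reached 0.47. The steadiest pair was SMAC_00076 with SMAC_04967 (SD 0.10). SMAC_00076 stood at 119 and 142 CPM in Δspt3 mycelium, 145 and 165 CPM in Δasm2 perithecia, 149 and 161 CPM in ΔSMAC_03952 perithecia, and 94.5 and 142 CPM in wild-type perithecia. SMAC_04967 stood at 50.8 and 64.1 CPM, 63.1 and 74.7 CPM, 72.7 and 75.8 CPM, and 43.1 and 69.1 CPM in the same groups, so both were lowest in wild-type perithecia replicate 1. Their highest libraries differed. In Δasm2 mycelium SMAC_00076 stood at 136 and 153 CPM and SMAC_04967 at 57.2 and 82.3 CPM. The last is the highest value of SMAC_04967, whereas SMAC_00076 was highest in Δasm2 perithecia replicate 2. The pair was picked from all pairs for its SD, which is a description. Averaged over the other 76 genes, SMAC_08273 had the lowest SD of log2 ratio (0.20) and SMAC_05136 the highest (0.33).

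The deviations of the 77 genes, with the median of each library taken out, held a first principal component with 23.6% of the variance. Its gene scores had a Spearman correlation of 0.52 with gene length and 0.02 with mean CPM over the 77 genes, given without a p. On it ΔSMAC_03952 mycelium replicate 2 lay at -1.43 and wild-type perithecia replicate 1 at -1.26, with their replicates at -0.06 and 1.04.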
